A study of Mus musculus with 12 samples.

Results

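Fatty acid oxidation and the tricarboxylic acid (TCA) cycle were followed through 46 genes, matched by symbol among the 49585 genes counted in every library. Of these, 25 belong to fatty acid oxidation and 21 to the TCA cycle and the entry of pyruvate, and 46 of 46 passed the filter on low counts in total RNA, in ribosome protected fragments (RPFs) and in translation efficiency (TE). RPFs are the pieces of mRNA that a ribosome shields from nuclease, so that their count follows the number of ribosomes on an mRNA, and TE is the RPF level of a gene over its total RNA level.

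Naive CD4 T cells isolated from lymph nodes of female mice were cultured for 20 h on plates coated with anti-CD3 at 5 ug/ml and anti-CD28 at 1 ug/ml, which engage the T cell receptor and its co-receptor, and were treated with 0.1 mg/ml cycloheximide for 1 min before lysis to hold ribosomes on mRNA. Control cells were Rnmt fl/fl CD4cre - and Rnmt cKO cells were Rnmt fl/fl CD4cre +, so both groups carry 2 floxed Rnmt alleles and differ in the Cre transgene. RNMT methylates the guanosine cap at the start of mRNAs, and Cre driven by Cd4 is active from the thymus onwards, so that the deletion precedes activation and CD8 T cells of these mice carry the deletion too. Cytoplasmic total RNA and RPFs were sequenced from 3 replicates of each genotype, which makes 12 libraries. The age of the mice is not given in the sources used here, and the labels number the replicates without saying that each was a separate mouse, so that p-values measure the spread between these samples.

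The total RNA libraries held from 15079703 to 22629563 reads assigned to genes and the RPF libraries from 4123271 to 10661356, the fewest being those of Rnmt cKO replicate 3. Values per library are given in CPM, the count of a gene relative to that of its library after scaling by edgeR's TMM method, in the order of replicates 1, 2 and 3. They are relative to the RNA sequenced in each library and do not measure how much mRNA a cell held. In such bulk samples, fewer cells of a type and less RNA per cell cannot be told apart.

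The labels were checked first on Rnmt itself (ENSMUSG00000009535). Its total RNA was 95.5, 94.1 and 94.3 CPM in controls and 29.3, 32.4 and 30.4 CPM in Rnmt cKO cells. RPFs on Rnmt were 104, 87.9 and 98.9 CPM in controls and 10.5, 10.4 and 9.60 CPM in Rnmt cKO cells. In both kinds of library every Rnmt cKO value was below every control, with log2 fold changes of -1.62 (standard error 0.06) in total RNA and -3.24 (standard error 0.10) in RPF. These counts cover the whole gene, of which exon 3 is floxed.

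As background, long-chain fatty acids are first joined to coenzyme A by acyl-CoA synthetases, then carried into mitochondria as carnitine esters by Cpt1a, Slc25a20 and Cpt2, and shortened there by repeated rounds of dehydrogenation, hydration, a second dehydrogenation and thiolysis. Their acetyl-CoA, and that made from pyruvate by the pyruvate dehydrogenase complex, is condensed with oxaloacetate by citrate synthase and oxidized in the TCA cycle, whose reduced cofactors feed the respiratory chain. Resting and memory T cells are known to rely on fatty acid oxidation more than activated T cells do, and activated T cells draw intermediates out of the TCA cycle for the synthesis of lipids, amino acids and nucleotides.

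RNMT acts on the cap that is added to the first transcribed base, so the annotated start of a transcript is where its reaction takes place. For the 5 subunits of the pyruvate dehydrogenase complex, the 3 of succinyl-CoA ligase and 3 acyl-CoA synthetases, the 30 bases around the annotated start on the strand of the gene (RefSeq, GRCm38.p6) are shown to place that base, with the first 10 transcribed bases in capitals and the 20 bases before them in lower case.
Pdha1: tgtgatgccgtcgcgactccGTCACTGCGT
Pdhb: gccctactattggctgcgtcAGACGGGCTC
Dlat: ccttagagcggccctggtccGTACTTCCCA
Pdhx: cagcccatgcaaggcggggcCTGGACGGGC
Dld: ccggaaagcctctgcctttcGGGCCAATCG
Suclg1: ctattgtttgcttttcaaacGTCATCCTTC
Sucla2: tctgcgcctgcgcggtgcccAGGGGACGGG
Suclg2: ccccgccccctcccgaggccTGGGCCCGGG
Acsl5: taagaggggtcacagaacacATTTCATCCT
Acsl3: gcgggccaatgggcggcggtCTCTTTGCAT
Acsl4: gcccgcccctccgggctcgtCTTTTCCGGG

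These windows lie at chrX:160138421-160138450 (minus strand) for Pdha1, chr14:8172983-8173012 (minus) for Pdhb, chr9:50659771-50659800 (minus) for Dlat, chr2:103073504-103073533 (minus) for Pdhx, chr12:31351462-31351491 (minus) for Dld, chr6:73248485-73248514 (plus) for Suclg1, chr14:73552766-73552795 (plus) for Sucla2, chr6:95718837-95718866 (minus) for Suclg2, chr19:55253349-55253378 (plus) for Acsl5, chr1:78657805-78657834 (plus) for Acsl3 and chrX:142390526-142390555 (minus) for Acsl4. Annotated starts are not measured here and can differ from those used in T cells. RefSeq windows were found for 41 of the 46 genes. A C followed by 4 pyrimidines at the annotated start, the shape of the terminal oligopyrimidine (TOP) motif of ribosomal protein mRNAs, was found in 2 of them (4.88%), Acsl3 and Acsl4, and in 3.01% of 27025 genes with a window. Of the 37 genes with a single annotated start, 18 begin with G, 10 with A, 6 with C and 3 with T. The median log2 fold change in total RNA was -0.28 for those that begin with G, -0.42 with A, -0.35 with C and -0.46 with T.

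The levels of the genes in control cells were compared per length, as total RNA in CPM per kb of annotated exons and as RPFs in CPM per kb of coding exons. Acsl5, an acyl-CoA synthetase, had the highest total RNA level at 147 ± 3.6 CPM per kb (SD, n = 3). Mdh1, the cytosolic malate dehydrogenase, followed with 117 ± 5.6 CPM per kb (SD, n = 3), and Idh3g, a regulatory subunit of NAD-dependent isocitrate dehydrogenase, with 84.0 ± 2.1 CPM per kb (SD, n = 3). These 3 levels were separated by more than their SDs. The lowest were those of Acsl1 with 3.47 ± 0.029 CPM per kb, Idh1, the cytosolic NADP-dependent isocitrate dehydrogenase, with 2.30 ± 0.12 CPM per kb, and Pcx, which makes oxaloacetate from pyruvate, with 1.18 ± 0.29 CPM per kb (SD, n = 3 each). Cpt1a, the enzyme by which long-chain fatty acids are committed to oxidation, stood at 4.08 ± 0.44 CPM per kb (SD, n = 3), the fourth lowest of the 46.

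In RPFs the order differed at the top, where the mitochondrial malate dehydrogenase Mdh2 had 727 ± 13.9 CPM per kb, Mdh1 554 ± 19.6 and citrate synthase Cs 323 ± 4.0 (SD, n = 3 each). Acsl5 ranked 13th with 135 ± 5.4 CPM per kb (SD, n = 3), and its RPF level was 0.918 times its total RNA level per kb, against 10.5 for Mdh2, 8.39 for Etfa and 8.20 for Acadl. Across the 46 genes the log2 TE in controls ran from -1.17 for Acsl5 to 2.87 for Mdh2, with a median of 0.79, and 39 of 46 were above the median of 0.18 of the 10620 genes tested for TE with counts in every library. This TE is not scaled by length, and total RNA also counts reads of untranslated regions.

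**Figure D1:**
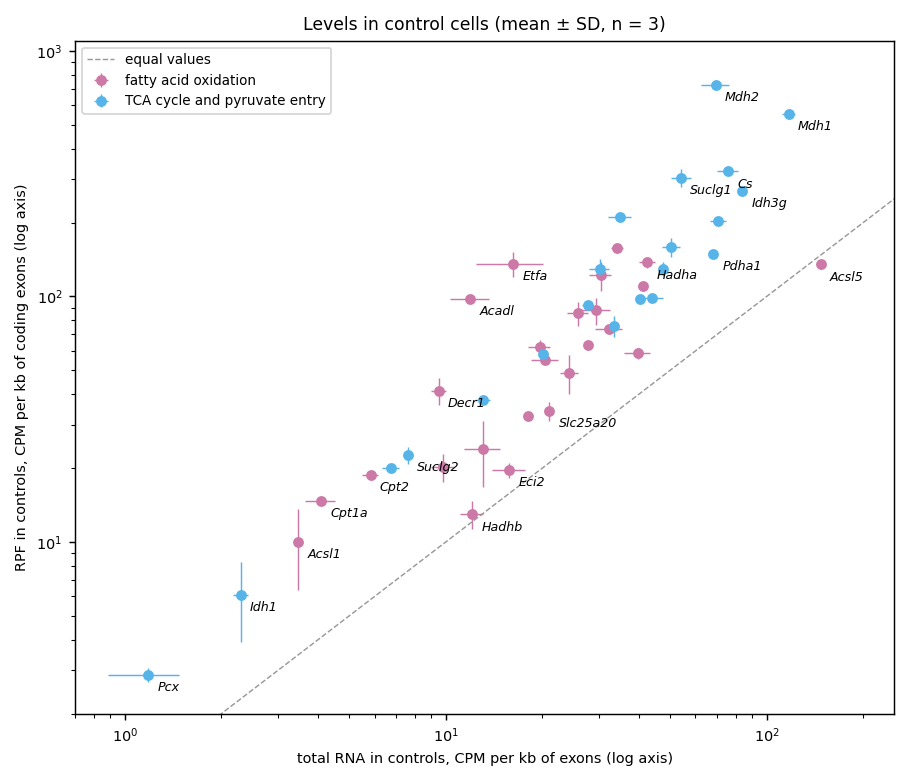
Level of each of the 46 genes in control cells, as total RNA in CPM per kb of exons (x axis, log) against RPFs in CPM per kb of coding exons (y axis, log). Points are means and bars SDs of 3 libraries. Fatty acid oxidation genes are pink and TCA cycle genes blue, and Acsl5 and Hadhb lie at or near the line of equal values while Mdh2, Etfa and Acadl lie far above it.

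Before the genotypes are compared, the cells themselves were checked. Cd4 total RNA was 350.1, 324 and 316 CPM in controls and 298, 271 and 315 CPM in Rnmt cKO cells, and the summed total RNA of 8 T cell genes, the most abundant of which was Cd5, was 2929, 2840.0 and 2674 CPM in controls and 1782, 1652 and 2022 CPM in Rnmt cKO cells. Of these 8 genes, 5 were decreased in total RNA, where 28.0% of all genes tested were, and 5 in RPF, where 15.7% were, with log2 fold changes in total RNA of -1.23 for Cd3g, -0.90 for Lck, -0.89 for Zap70, -0.74 for Cd3d and -0.65 for Cd5. The 6 B cell genes, led by Ms4a1, summed to 9.60, 6.30 and 34.4 CPM of total RNA in controls and 88.6, 106 and 20.0 CPM in Rnmt cKO cells. Rnmt cKO replicates 1 and 2 stood apart with the highest B cell RNA, control replicate 3 came next, and Rnmt cKO replicate 3 lay below control replicate 3. Of these 6 genes, 4 were tested in total RNA and 2 were increased there, Cd79b and Ms4a1, and the same 2 of 6 were increased in RPF, against 26.3% and 14.1% of all genes tested.

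The CD8 genes Cd8a and Cd8b1 summed to 21.4, 21.4 and 41.7 CPM of total RNA in controls and 26.4, 21.3 and 9.85 CPM in Rnmt cKO cells. Of 5 genes of natural killer (NK) cells only Eomes, which activated T cells also express, passed the filter, at 2.44, 3.02 and 3.23 CPM of total RNA in controls and 20.2, 35.7 and 20.5 CPM in Rnmt cKO cells, while no library exceeded 1.02 CPM of total RNA for Ncr1, Klrb1c, Klra8 or Klre1. Of 6 myeloid genes only Cst3, at 29.7, 31.4 and 31.0 CPM in controls and 31.1, 31.1 and 31.4 CPM in Rnmt cKO cells, passed, and Lyz2, Csf1r, Itgam, Cd14 and Adgre1 stayed at or below 0.475 CPM of total RNA. The 4 genes of regulatory T cells, led by Il2ra, which activation induces in all T cells, summed to 341, 345 and 325 CPM and 414, 456 and 415 CPM, with Foxp3 below 1 CPM in every total RNA library. Il2ra supplied 52.3% of this sum in controls and 72.3% in Rnmt cKO cells. Of the 3 genes tested in total RNA, 2 were increased, against 26.3% of all genes tested, and 1 had a log2 fold change of -0.51, not past the threshold. The part of B cell RNA in the values below was not tested. Counts and fold changes are also given from a fit in which Rnmt cKO replicate 3 alone stood against the controls. This library held less B cell RNA than replicates 1 and 2. A fold change given from that fit is an effect size and does not show that a call held. In that fit the lone library was assumed to vary like the controls, and 20.8% of all genes tested were decreased and 19.7% increased in total RNA, and 4.75% and 4.36% in RPF. Of the 8 T cell genes, 5 were decreased in total RNA and 2 in RPF in it.

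Total RNA of the pathway was lower in Rnmt cKO cells, and more of its fatty acid oxidation genes than of its TCA cycle genes were among those that fell. Of the 46 genes, 28 were decreased and 4 increased at an adjusted p under 0.05 (edgeR's quasi-likelihood test, Benjamini-Hochberg over 11519 genes), against 28.0% decreased and 26.3% increased among all genes tested. The median log2 fold change was -0.33, against -0.004 over all genes tested. Among fatty acid oxidation genes 18 of 25 were decreased and 0 increased (median -0.41), and among TCA cycle and pyruvate genes 10 of 21 were decreased and 4 increased (median -0.15). The difference between these groups of the pathway was not tested. Among the decreased genes, the values of Hadhb overlapped between the genotypes. Rnmt cKO replicate 3 alone against the controls gave a median log2 fold change of -0.27, against -0.01 over all genes tested in that fit. The median was -0.38 in fatty acid oxidation and -0.14 in the TCA cycle and pyruvate entry.

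Summed over the 25 fatty acid oxidation genes, total RNA was 1875, 1866 and 1779.8 CPM in controls and 1263, 1244 and 1317 CPM in Rnmt cKO cells. The 3 Rnmt cKO libraries lay close together and below the controls. Acsl5 supplied 33.9% of this sum in controls and 26.0% in Rnmt cKO cells. The 21 TCA cycle and pyruvate genes summed to 2047, 2079.6 and 1998 CPM in controls and 1914, 1887 and 1777 CPM in Rnmt cKO cells, a smaller gap that still left every Rnmt cKO library below every control.

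RPFs on the pathway were lower in Rnmt cKO cells as well. Of the 46 genes 21 were decreased and 3 increased, against 15.7% decreased and 14.1% increased among 11428 genes tested, and the median log2 fold change was -0.24 against 0.008. In fatty acid oxidation 15 of 25 were decreased and 0 increased (median -0.37), and in the TCA cycle and pyruvate entry 6 of 21 were decreased and 3 increased (median -0.04). The fatty acid oxidation sum was 2484, 2409 and 2320.2 CPM in controls and 1855, 1883 and 1868 CPM in Rnmt cKO cells, and the TCA cycle sum 4671, 4565 and 4503 and 4525, 4634 and 4252 CPM. The latter overlapped between the genotypes. With Rnmt cKO replicate 3 alone, the median log2 fold change was -0.29, against -0.013 over all genes tested in that fit. The median was -0.37 in fatty acid oxidation and -0.07 in the TCA cycle and pyruvate entry. The RPF library of this replicate is the shallowest of the 12.

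Between both kinds of library, 16 of the 46 genes were decreased in total RNA and RPF, against 12.9% of the 10668 genes tested in both, and 2 were increased in both, Dlst and Pdhx, against 10.7%. A further 12 were decreased in total RNA and not past the threshold in RPF, against 15.9% of all genes, and 5 the reverse, against 2.94%. Of the 46 genes, 8 passed the threshold in neither total RNA nor RPF, against 38.3% of all genes tested in both.

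The acyl-CoA synthetases Acsl1, Acsl3, Acsl4 and Acsl5 activate long-chain fatty acids for oxidation or for lipid synthesis. Total RNA of Acsl5 was 636, 631 and 607 CPM in controls and 316, 324 and 355 CPM in Rnmt cKO cells. Every Rnmt cKO library held less than every control, a change of -0.91 on the log2 scale (standard error 0.07, edgeR adjusted p = 3.2e-05). RPFs on Acsl5 were 289, 268 and 274 CPM in controls and 192, 176 and 180.4 CPM in Rnmt cKO cells, again without overlap, a change of -0.60 on the log2 scale (standard error 0.06, edgeR adjusted p = 0.00040). Acsl3, one of the genes with a pyrimidine-rich start, also fell, with log2 fold changes of -0.57 in total RNA and -0.37 in RPF, where 5 of 6 fits without a single library lost the call. The other gene with such a start, Acsl4, had log2 fold changes of -0.13 in total RNA and -0.11 in RPF (standard errors 0.08 and 0.09), neither past the threshold. Acsl1, among the least abundant, had 14.5, 14.6 and 14.3 CPM of total RNA in controls and 13.9, 16.9 and 14.3 CPM in Rnmt cKO cells, with overlapping values and a change of 0.06 on the log2 scale (standard error 0.10, edgeR adjusted p = 0.64). Its RPFs were 18.5, 30.8 and 15.9 CPM in controls and 19.7, 20.7 and 18.5 CPM in Rnmt cKO cells, which overlapped too.

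Of the carnitine shuttle, 3 of 3 genes were decreased in total RNA and 2 of 3 in RPF, against 28.0% and 15.7% of all genes tested. With Rnmt cKO replicate 3 alone, log2 fold changes in total RNA were -0.40 for Cpt1a, -0.38 for Cpt2 and -0.055 for Slc25a20. Those in RPF were -0.30, -0.37 and -0.36, and these effect sizes do not show that the calls held. Cpt1a total RNA was 17.2, 19.7 and 16.0 CPM in controls and 13.0, 13.8 and 13.1 CPM in Rnmt cKO cells. The groups did not overlap, with a change of -0.41 on the log2 scale (standard error 0.10, edgeR adjusted p = 0.010). Its RPFs were 34.9, 33.2 and 34.1 CPM and 25.4, 24.3 and 27.8 CPM, without overlap and with a change of -0.41 on the log2 scale (standard error 0.09, edgeR adjusted p = 0.014), a call lost without Rnmt cKO replicate 2. Cpt2, which releases acyl-CoA from carnitine inside the mitochondrion, had log2 fold changes of -0.46 in total RNA and -0.41 in RPF. Slc25a20, the carnitine-acylcarnitine carrier between them, had -0.30 in total RNA and -0.20 in RPF, where the first was past the threshold in 1 of 6 fits without a single library and the second did not pass it.

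The spiral of beta-oxidation was counted as 10 mitochondrial enzymes, of which 7 were decreased in total RNA and 8 in RPF, and 0 increased in either, against 28.0% and 15.7% decreased among all genes tested. Against the controls, Rnmt cKO replicate 3 alone gave 5 and 4 decreased, against 20.8% and 4.75%. Of the dehydrogenases that open each round, which differ in the chain length they take, Acadm (medium chains) fell with log2 fold changes of -0.65 in total RNA and -0.49 in RPF and Acadvl (very long chains) with -0.45 and -0.32. Acads (short chains) fell in total RNA (-0.36, lost without Rnmt cKO replicate 1) and had -0.21 in RPF, which was not past the threshold. Acadl (long chains) had -0.04 in total RNA, not past the threshold, and fell in RPF (-0.51).

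Hadh, which carries out the second dehydrogenation of medium and short chains, had 56.5, 57.2 and 49.3 CPM of total RNA in controls and 37.5, 36.9 and 36.1 CPM in Rnmt cKO cells. RPFs on Hadh were 108, 133 and 104 CPM in controls and 72.6, 73.1 and 79.0 CPM in Rnmt cKO cells. Neither set overlapped, with a change of -0.56 on the log2 scale (standard error 0.08, edgeR adjusted p = 0.00054) in total RNA and a change of -0.62 on the log2 scale (standard error 0.10, edgeR adjusted p = 0.0031) in RPF. Acat1, the thiolase that also works in ketone body metabolism, had 122, 116 and 112 CPM of total RNA in controls and 61.2, 56.6 and 65.4 CPM in Rnmt cKO cells, giving a change of -0.93 on the log2 scale (standard error 0.07, edgeR adjusted p = 3.8e-05). Its RPFs were 201, 206 and 195 CPM and 128, 139.7 and 148 CPM, a change of -0.54 on the log2 scale (standard error 0.07, edgeR adjusted p = 0.0010). Every Rnmt cKO library was below every control in both kinds. Acaa2, another thiolase, fell with -0.61 in total RNA and -0.56 in RPF, and Echs1, the hydratase of short chains, had -0.20 in total RNA, not past the threshold, and -0.22 in RPF, a call lost in 5 of 6 fits without a single library.

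Hadha and Hadhb encode the 2 subunits of the mitochondrial trifunctional protein, which performs the last 3 steps of each round on long chains, and lie head to head on chromosome 5. Their annotated starts, at 30154980 for Hadha on the minus strand and 30155253 for Hadhb on the plus strand, have 272 bases between them. The 250 bases before the Hadhb start (chr5:30155003-30155252 of GRCm38.p6, RefSeq, plus strand) are shown because they lie between both RefSeq starts. In GENCODE vM21 the Hadha gene reaches 30155162, within these bases. Capitals mark the 228 bases that also lie within the 250 bases before the RefSeq start of Hadha.
Hadhb: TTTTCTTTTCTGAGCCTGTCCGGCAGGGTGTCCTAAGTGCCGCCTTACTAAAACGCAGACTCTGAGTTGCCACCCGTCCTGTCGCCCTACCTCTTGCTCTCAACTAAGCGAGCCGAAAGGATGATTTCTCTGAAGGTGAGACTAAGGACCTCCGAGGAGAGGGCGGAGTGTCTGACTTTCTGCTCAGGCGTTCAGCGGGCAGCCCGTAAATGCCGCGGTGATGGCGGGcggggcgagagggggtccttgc

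The levels of the pair differed, with 42.5 ± 2.6 CPM per kb for Hadha and 12.1 ± 0.99 for Hadhb in control total RNA (SD, n = 3 each). Hadha had a log2 fold change of -0.10 in total RNA, not past the threshold, and fell in RPF with -0.27 (standard error 0.06, edgeR adjusted p = 0.011). Hadhb fell in total RNA with -0.30 (standard error 0.11, edgeR adjusted p = 0.045), kept in 2 of 6 fits without a single library, and had 0.01 in RPF, which was not past the threshold.

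Decr1, the dienoyl-CoA reductase needed for polyunsaturated chains, fell in both kinds. Its total RNA was 26.6, 29.6 and 28.0 CPM in controls and 12.6, 11.0 and 14.9 CPM in Rnmt cKO cells, less than every control in each library, with a change of -1.13 on the log2 scale (standard error 0.12, edgeR adjusted p = 0.00015). RPFs on Decr1 were 47.5, 38.1 and 38.7 CPM in controls and 23.5, 22.0 and 17.5 CPM in Rnmt cKO cells, with a change of -0.97 on the log2 scale (standard error 0.14, edgeR adjusted p = 0.0017). Eci1, an enoyl-CoA isomerase for unsaturated chains, had 40.7, 40.0 and 33.4 CPM of total RNA in controls and 25.6, 22.8 and 25.1 CPM in Rnmt cKO cells, without overlap and with a change of -0.64 on the log2 scale (standard error 0.10, edgeR adjusted p = 0.00099). Its RPFs were 80.4, 83.7 and 65.6 CPM and 71.0, 67.1 and 73.1 CPM, which overlapped, and the log2 fold change of -0.12 was not past the threshold. The isomerase Eci2 fell in total RNA (-0.52) and had -0.44 in RPF, not past the threshold. In peroxisomes, where very long chains are shortened, the thiolase Acaa1a and the bifunctional enzyme Hsd17b4 fell in total RNA (-0.68 and -0.25), and neither passed the threshold in RPF (-0.33 and 0.04).

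The electron transfer flavoprotein, whose subunits are Etfa and Etfb, passes electrons from the acyl-CoA dehydrogenases to Etfdh and so to ubiquinone. RPFs on Etfa were 153, 121 and 134 CPM in controls and 86.2, 86.9 and 80.0 CPM in Rnmt cKO cells, without overlap and with a change of -0.69 on the log2 scale (standard error 0.09, edgeR adjusted p = 0.0014). Total RNA of Etfa was 19.7, 19.3 and 28.7 CPM in controls and 23.1, 27.5 and 11.5 CPM in Rnmt cKO cells. These values overlapped, with the highest in control replicate 3 and the lowest in Rnmt cKO replicate 3, and a change of -0.13 on the log2 scale (standard error 0.30, edgeR adjusted p = 0.73). The SD of log2 total RNA within a genotype was 0.52 for Etfa, the highest of the 46 genes, whose median was 0.11, against 0.12 over 11515 genes. Etfdh fell in RPF (-0.40) and had -0.08 in total RNA, not past the threshold, and Etfb fell in total RNA (-0.37, kept in 1 of 6 fits without a single library) with 0.09 in RPF, not past the threshold.

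**Figure D2:**
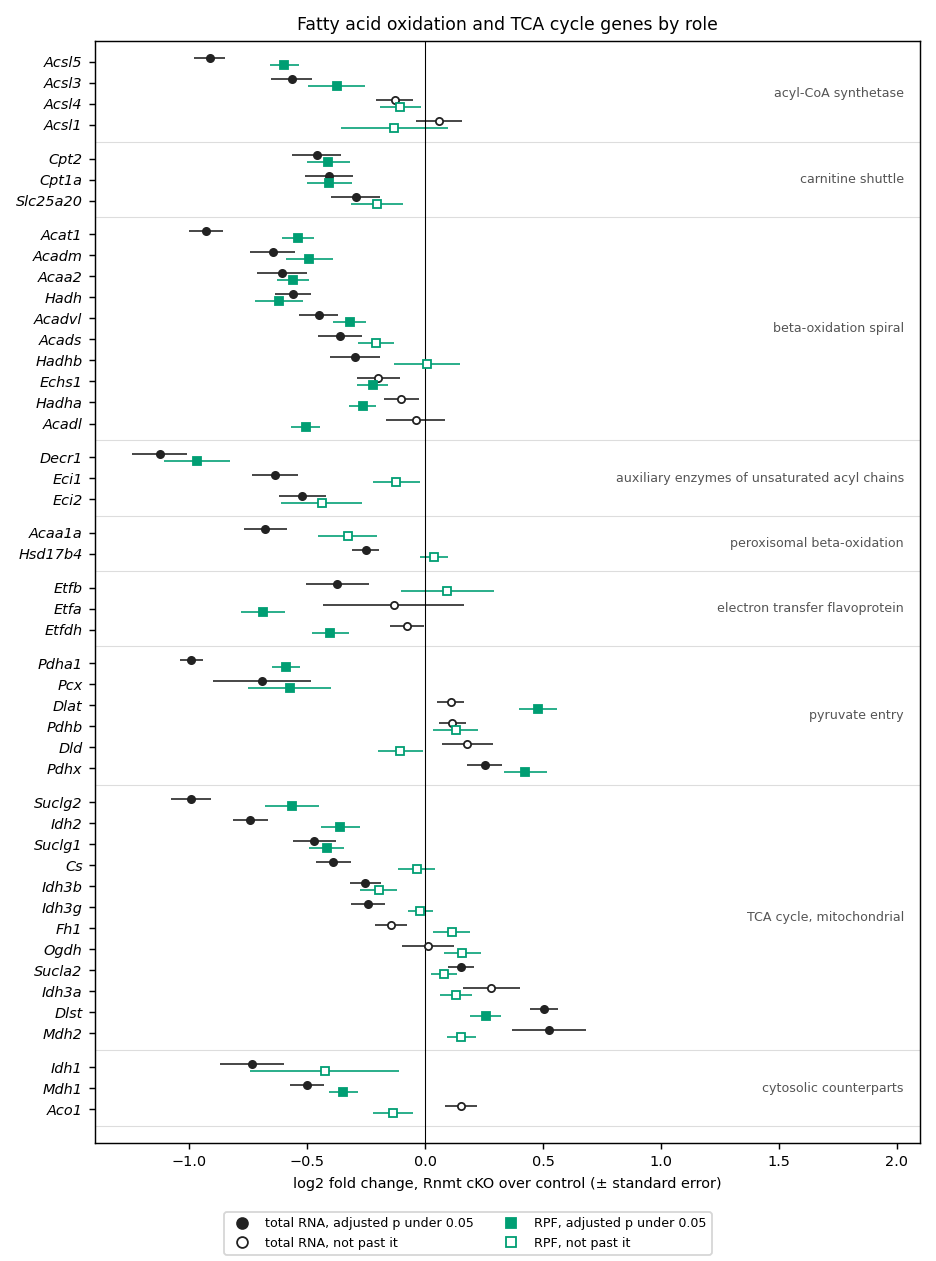
Log2 fold change of Rnmt cKO over control (x axis, bars are standard errors from edgeR) for the 46 genes, grouped by role and ordered by total RNA within a role. Circles are total RNA and squares RPF, filled where the adjusted p was under 0.05. Fatty acid oxidation genes lie at or below 0 apart from small values above it that did not pass the test, while pyruvate entry and the TCA cycle hold filled points on both sides.

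At the entry of pyruvate, the pyruvate dehydrogenase complex joins the heterotetramer of Pdha1 and Pdhb (E1), the transacetylase Dlat (E2), the dehydrogenase Dld (E3) and the E3-binding protein Pdhx. Pdha1 total RNA was 197, 197 and 190.0 CPM in controls and 96.3, 97.8 and 99.2 CPM in Rnmt cKO cells, giving a change of -0.99 on the log2 scale (standard error 0.05, edgeR adjusted p = 9.2e-06). Its RPFs were 181, 173 and 167 CPM in controls and 117, 117 and 113 CPM in Rnmt cKO cells, giving a change of -0.59 on the log2 scale (standard error 0.06, edgeR adjusted p = 0.00036). Replicates lay closer together for Pdha1 than the genotypes did in both kinds, with SDs of log2 values within a genotype of 0.03 and 0.04.

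Its partner Pdhb, chosen after its values were seen, had 50.6, 51.0 and 49.8 CPM of total RNA in controls and 56.5, 54.6 and 53.0 CPM in Rnmt cKO cells, with a change of 0.12 on the log2 scale (standard error 0.06, edgeR adjusted p = 0.13), and RPFs of 90.2, 79.3 and 74.5 and 81.2, 93.1 and 93.0 CPM, with a change of 0.13 on the log2 scale (standard error 0.09, edgeR adjusted p = 0.33). Neither passed the threshold. Dlat had 81.6, 82.6 and 78.6 CPM of total RNA in controls and 85.8, 84.9 and 90.8 CPM in Rnmt cKO cells, with a change of 0.11 on the log2 scale (standard error 0.06, edgeR adjusted p = 0.14). RPFs on Dlat were 105, 119 and 113 CPM in controls and 158, 168 and 143 CPM in Rnmt cKO cells, all above the controls, with a change of 0.48 on the log2 scale (standard error 0.08, edgeR adjusted p = 0.0033), a call lost with Rnmt cKO replicate 3 alone (log2 fold change 0.34, edgeR adjusted p = 0.0939). Pdhx rose in both kinds, with log2 fold changes of 0.25 in total RNA and 0.42 in RPF (standard errors 0.07 and 0.09). The call in total RNA was lost in 2 of 6 fits without a single library. With Rnmt cKO replicate 3 alone the log2 fold changes of Pdhx were 0.26 in total RNA and 0.27 in RPF, effect sizes that do not show that its calls held. Dld, which the 2-oxoglutarate dehydrogenase complex shares, had 0.18 and -0.11 (standard errors 0.11 and 0.10), neither past the threshold.

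Pcx, the other way for pyruvate into the cycle, was the least abundant of the 46 genes, with 4.19, 6.46 and 4.42 CPM of total RNA in controls and 2.58, 3.30 and 3.37 CPM in Rnmt cKO cells. It fell in total RNA, with a change of -0.69 on the log2 scale (standard error 0.21, edgeR adjusted p = 0.023), and 2 of 6 fits without a single library lost the call. Its RPFs were 11.0, 9.80 and 9.81 CPM and 7.49, 7.13 and 5.66 CPM, without overlap, and the call in RPF, with a change of -0.58 on the log2 scale (standard error 0.18, edgeR adjusted p = 0.040), was lost in 6 of 6 such fits.

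**Figure D3:**
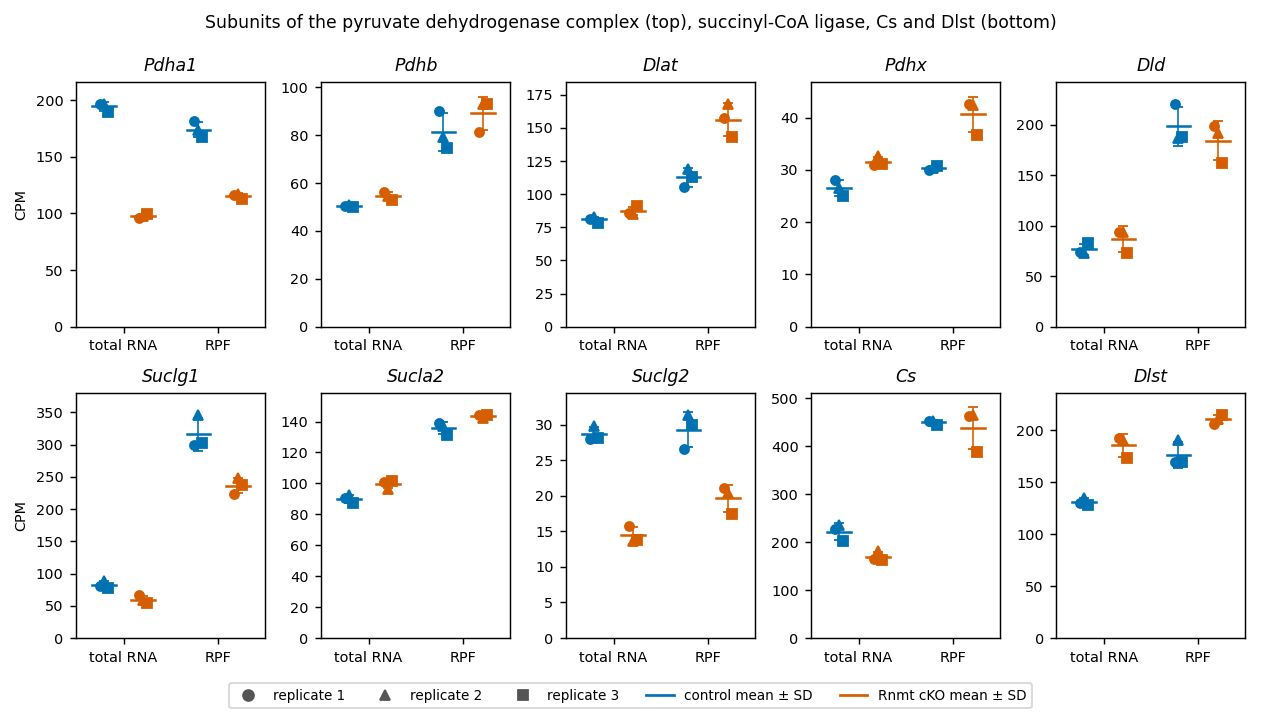
CPM (y axis, from 0) of the pyruvate dehydrogenase subunits Pdha1, Pdhb, Dlat, Pdhx and Dld, the succinyl-CoA ligase subunits Suclg1, Sucla2 and Suclg2, citrate synthase (Cs) and Dlst in each library of total RNA and RPF. Symbols are replicates 1 to 3, lines means and bars SDs of 3 libraries. Pdha1 and Suclg2 lie below all controls in Rnmt cKO cells in both kinds, and Dlst and Pdhx above them.

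In the mitochondrial TCA cycle, total RNA fell for 6 of 12 genes and rose for 3, and RPFs fell for 3 and rose for 1. Among all genes tested 28.0% fell and 26.3% rose in total RNA and 15.7% and 14.1% in RPF. With Rnmt cKO replicate 3 alone, total RNA fell for 5 of 12 and rose for 1, against 20.8% and 19.7% of all genes, and RPFs fell for 1 and rose for 0, against 4.75% and 4.36%. Citrate synthase, which starts the cycle, had 228, 235 and 203 CPM of total RNA in controls and 166, 181 and 162 CPM in Rnmt cKO cells, all below the controls, with a change of -0.39 on the log2 scale (standard error 0.07, edgeR adjusted p = 0.0029). RPFs on Cs were 454, 453 and 444 CPM in controls and 463, 465 and 389 CPM in Rnmt cKO cells. These overlapped, with 2 Rnmt cKO libraries above all controls and replicate 3 below them, and a change of -0.04 on the log2 scale (standard error 0.08, edgeR adjusted p = 0.76). The call in total RNA held in 6 of 6 fits without a single library.

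Idh2, the mitochondrial NADP-dependent isocitrate dehydrogenase, had 75.4, 83.2 and 71.7 CPM of total RNA in controls and 44.3, 45.8 and 47.6 CPM in Rnmt cKO cells, with a change of -0.74 on the log2 scale (standard error 0.07, edgeR adjusted p = 0.00012). Its RPFs were 136, 131 and 133 CPM and 108, 111 and 90.6 CPM, with a change of -0.36 on the log2 scale (standard error 0.08, edgeR adjusted p = 0.013). No Rnmt cKO library reached the lowest control in either kind. Of the NAD-dependent enzyme, Idh3g had 115, 111 and 109.6 CPM of total RNA in controls and 99.1, 85.1 and 99.1 CPM in Rnmt cKO cells, a change of -0.24 on the log2 scale that 3 of 6 fits without a single library lost, and RPFs of 308, 322 and 322 and 319.6, 316 and 303 CPM, which overlapped. Idh3b fell in total RNA (-0.25, lost in 2 of 6 such fits) and had -0.20 in RPF, and the catalytic subunit Idh3a had 0.28 and 0.13, neither past the threshold.

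The 2-oxoglutarate dehydrogenase complex consists of Ogdh (E1), Dlst (E2) and Dld (E3). Ogdh had 120.4, 121 and 129 CPM of total RNA in controls and 133, 138 and 102 CPM in Rnmt cKO cells, and RPFs of 306, 295 and 287 CPM and 349.7, 347 and 292 CPM. Both overlapped between the genotypes, with a change of 0.01 on the log2 scale (standard error 0.11, edgeR adjusted p = 0.93) in total RNA and a change of 0.16 on the log2 scale (standard error 0.08, edgeR adjusted p = 0.17) in RPF. Dlst rose in total RNA with a change of 0.50 on the log2 scale (standard error 0.06, edgeR adjusted p = 0.00028) and in RPF with a change of 0.26 on the log2 scale (standard error 0.07, edgeR adjusted p = 0.020), the second lost in 3 of 6 fits without a single library.

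Succinyl-CoA ligase pairs the common subunit Suclg1 with either Sucla2, which makes ATP, or Suclg2, which makes GTP. Suclg2 total RNA was 28.0, 29.8 and 28.2 CPM in controls and 15.8, 13.7 and 13.8 CPM in Rnmt cKO cells, giving a change of -0.99 on the log2 scale (standard error 0.09, edgeR adjusted p = 6.6e-05). RPFs on Suclg2 were 26.7, 31.4 and 30.0 CPM and 21.1, 20.4 and 17.5 CPM, a change of -0.57 on the log2 scale (standard error 0.12, edgeR adjusted p = 0.0083). Suclg1 fell with -0.47 in total RNA and -0.42 in RPF (standard errors 0.09 and 0.07). Sucla2 rose in total RNA by 0.15 (edgeR adjusted p = 0.045, kept in 1 of 6 fits without a single library) and had 0.08 in RPF, not past the threshold. Relative to the RNA sequenced, Suclg2 and Sucla2 had fold changes of opposite sign in total RNA, with no overlap between the genotypes in either gene. That of Sucla2 was small, and its call was lost in most fits without a single library.

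Of the remaining steps, fumarase Fh1 had -0.15 in total RNA and 0.11 in RPF, neither past the threshold, and Mdh2 rose in total RNA by 0.52 (standard error 0.16) with 0.15 in RPF, not past the threshold. The rise of Mdh2 total RNA rested on Rnmt cKO replicates 1 and 2, at 162 and 166 CPM against 93.6 to 113 in controls, while Rnmt cKO replicate 3 had 108 CPM, and 3 of 6 fits without a single library lost the call. Of the cytosolic counterparts, Mdh1 had 249, 259.7 and 236 CPM of total RNA in controls and 177, 161 and 188 CPM in Rnmt cKO cells, giving a change of -0.50 on the log2 scale (standard error 0.07, edgeR adjusted p = 0.00072), and RPFs of 577, 549 and 539 and 454, 422 and 432 CPM, a change of -0.35 on the log2 scale (standard error 0.06, edgeR adjusted p = 0.0042). Neither overlapped. Idh1 had 6.0, 5.40 and 5.66 CPM of total RNA in controls and 3.87, 3.15 and 3.28 CPM in Rnmt cKO cells, without overlap, a change of -0.73 on the log2 scale (standard error 0.14, edgeR adjusted p = 0.0026). Its RPFs, 7.23, 10.4 and 5.03 and 4.92, 4.69 and 7.63 CPM, overlapped. Aco1, the cytosolic aconitase that also acts as an iron regulatory protein, had 0.15 in total RNA and -0.14 in RPF, neither past the threshold.

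TE asks whether the genotype changed RPFs by as much as total RNA. By the interaction test on the 12 libraries, TE was higher in Rnmt cKO cells for 7 of the 46 genes and lower for 0, against 3.24% increased and 6.57% decreased among 10668 genes tested. At an unadjusted p under 0.05 the interaction counted 11 of the 46 genes up and 4 down, against 11.9% and 12.7% of all genes tested. DESeq2 kept these 7 calls of a higher TE and also called Acadl decreased. The median log2 fold change in TE was 0.13, against 0.04 over all genes tested. Of the 7 genes, 6 were decreased in total RNA, so that their RPFs fell by less than their total RNA or were not past the threshold. Total RNA is also the denominator of TE, and the share among all genes with an increased TE was not counted here. By another test, the authors too found less total RNA for most mRNAs with an increased TE in Rnmt cKO cells. The pattern is therefore not particular to these genes.

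The log2 TE of Pdha1 was -0.12, -0.18 and -0.18 in controls and 0.28, 0.26 and 0.19 in Rnmt cKO cells, with no overlap and a change of 0.40 on the log2 scale (standard error 0.07, edgeR adjusted p = 0.0038). This call held in 6 of 6 fits without a single library, with log2 fold changes of 0.38 to 0.42. For Eci1 the log2 TE was 0.98, 1.07 and 0.97 in controls and 1.47, 1.56 and 1.54 in Rnmt cKO cells, giving a change of 0.51 on the log2 scale (standard error 0.15, edgeR adjusted p = 0.042). For Acat1 it was 0.73, 0.83 and 0.81 and 1.07, 1.30 and 1.18, a change of 0.39 on the log2 scale (standard error 0.10, edgeR adjusted p = 0.027). Those of Dlat were 0.37, 0.53 and 0.53 and 0.88, 0.99 and 0.66, a change of 0.37 on the log2 scale (standard error 0.10, edgeR adjusted p = 0.029), and there the RPFs had risen over total RNA that did not pass the threshold.

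Idh2 had a log2 TE of 0.84, 0.66 and 0.89 in controls and 1.29, 1.28 and 0.93 in Rnmt cKO cells, giving a change of 0.38 on the log2 scale (standard error 0.11, edgeR adjusted p = 0.045). The other genes with an increased TE were Hsd17b4 (0.29, standard error 0.08) and Acsl5 (0.32, standard error 0.09). The Rnmt cKO values lay above all controls in each of the 7 genes, which were selected by this test, so the separation adds no support. Apart from Pdha1, each of these calls was kept in 1 of 6 fits without a single library. It was that without control replicate 3 for Eci1 and that without Rnmt cKO replicate 3 for the others. With Rnmt cKO replicate 3 alone, log2 fold changes in TE were 0.51 for Eci1, 0.37 for Acat1 and 0.32 for Pdha1. For Hsd17b4, Acsl5, Dlat and Idh2 they were 0.18, 0.17, 0.16 and 0.11. These effect sizes from a single Rnmt cKO replicate do not show that the calls held. With a block for the replicate from which both kinds of library came, Idh2 (edgeR adjusted p = 0.060) and Acsl5 (0.056) no longer passed, and Cs (0.038), with a higher TE in Rnmt cKO cells, and Acadl (0.049), with a lower TE, did.

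The neighbouring parts of metabolism were followed through 57 other genes, of which 48 were tested in total RNA and 50 in RPF. In total RNA 20 were decreased and 4 increased, and in RPF 15 were decreased and 1 increased, against 28.0% and 26.3% of all genes tested in total RNA and 15.7% and 14.1% in RPF. With Rnmt cKO replicate 3 alone, 15 were decreased and 4 increased in total RNA, and 2 and 2 of 49 in RPF, a share near that of all genes in that fit. Succinate dehydrogenase, the step between succinyl-CoA ligase and fumarase, also changed unevenly. Sdhb, its iron-sulfur subunit, had 177, 182 and 175 CPM of total RNA in controls and 82.9, 79.0 and 91.6 CPM in Rnmt cKO cells, giving a change of -1.07 on the log2 scale (standard error 0.07, edgeR adjusted p = 1.7e-05), and fell in RPF with -0.70. The flavoprotein subunit Sdha fell with -0.36 in total RNA, kept in 4 of 6 fits without a single library, and -0.29 in RPF. Of the membrane anchors, Sdhc fell in total RNA (-0.57) and had -0.22 in RPF, not past the threshold, and Sdhd had 0.0012 and 0.07, neither past it.

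Among regulators of pyruvate entry, the kinases that inactivate Pdha1 included Pdk1, with 199, 209.9 and 176 CPM of total RNA in controls and 111, 114 and 116 CPM in Rnmt cKO cells, giving a change of -0.78 on the log2 scale (standard error 0.07, edgeR adjusted p = 8.3e-05). Pdk1 RPFs fell with -0.33, kept in 4 of 6 fits without a single library, and its TE was increased (0.45, edgeR adjusted p = 0.017), as was that of Sdhb (0.37, edgeR adjusted p = 0.028). The TE call was kept in 3 of 6 such fits for Pdk1 and in 1 of 6 for Sdhb. With Rnmt cKO replicate 3 alone the log2 fold changes in TE were 0.47 for Pdk1 and 0.18 for Sdhb. Pdk3 fell in both kinds (-0.31 and -0.21), and Pdk2, at no more than 3.34 CPM of total RNA, had -0.26 there, not past the threshold, and fell in RPF (-0.53). The calls of Pdk2 and Pdk3 in RPF were each kept in 1 of 6 fits without a single library. Pdk4 was below the filter in both kinds, with at most 0.151 CPM. Pdp2, a phosphatase that reactivates Pdha1, rose in total RNA (0.55) with 0.29 in RPF, not past the threshold.

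Oxct1, which activates acetoacetate so that ketone bodies can be oxidized, fell in both kinds, with 375, 412 and 283 CPM of total RNA in controls and 144, 132 and 149 CPM in Rnmt cKO cells and a change of -1.33 on the log2 scale (standard error 0.13, edgeR adjusted p = 0.00012). RPFs on Oxct1 were 505, 479 and 382 CPM and 226, 215 and 220.2 CPM, a change of -1.05 on the log2 scale (standard error 0.10, edgeR adjusted p = 0.00028). Acat1, the enzyme that follows it in that pathway, is among the 46 genes described above. Pck2, the mitochondrial phosphoenolpyruvate carboxykinase, fell with -1.23 in total RNA and -1.09 in RPF, and the malic enzyme Me2 with -0.54 and -0.29, the latter kept in 5 of 6 fits without a single library.

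Among other acyl-CoA dehydrogenases and acyl carriers 6 of 11 were decreased in total RNA and 5 of 11 in RPF, with 0 increased, against 28.0% and 15.7% decreased among all genes tested. Their median log2 fold changes were -0.28 in total RNA and -0.32 in RPF. In the fit with Rnmt cKO replicate 3 alone the medians were -0.15 and -0.20. Acadsb, which takes branched short chains, fell with -1.02 in total RNA and -0.74 in RPF, Acad10 with -0.96 and -1.05, Acad11 with -0.61 and -0.53 (the latter kept in 3 of 6 fits without a single library), and the peroxisomal carnitine acyltransferase Crot with -0.45 and -0.51. Of the supply of fatty acids, the lysosomal lipase Lipa fell (-0.74 and -0.69), the hormone-sensitive lipase Lipe rose (0.68 and 0.86), and Mlycd, which degrades malonyl-CoA, the inhibitor of Cpt1a, fell in total RNA (-0.66) with -0.06 in RPF, not past the threshold.

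Of 9 transcription factors and coactivators known to act on these genes, 6 were tested in total RNA, where 2 were decreased and 1 increased, shares near or below the 28.0% and 26.3% of all genes tested, and 7 in RPF, where 0 were. Those in total RNA, named here after their values were seen, were Esrra (-0.44) and Nrf1 (-0.17), which fell, and Gabpa (0.33), which rose. The call of Nrf1 was kept in 2 of 6 fits without a single library. With Rnmt cKO replicate 3 alone, log2 fold changes were -0.35 for Esrra, -0.07 for Nrf1 and 0.37 for Gabpa. Ppargc1b, which had not passed with all libraries, had -0.88 in that fit. In RPF the count at an unadjusted p under 0.05 was 0 of 7. Their summed total RNA was 407, 413 and 399 CPM in controls and 407, 411 and 430.1 CPM in Rnmt cKO cells, with Gabpa the most abundant. The promoter windows, 250 bases before to 50 after the annotated start, were searched on both strands for 3 short motifs, none of which contains another. The GABPA motif CCGGAAGT was found in 3 of 41 genes (Cpt2, Slc25a20 and Dlst, 7.32%), against 4.31% of 27025 genes. The E-box CACGTG was found in 2 of 41 (Ogdh and Pcx, 4.88%), against 8.09%, and the estrogen-related receptor motif TCAAGGTCA in 0 of 41, against 0.466%.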

How the data were processed

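Total cytoplasmic RNA and RPF libraries of 3 control and 3 Rnmt cKO replicates were grouped by the labels. The authors took read 2, because read 1 failed, removed adapters with cutadapt and rRNA and tRNA reads with Bowtie, aligned to mm10 (GENCODE vM12) with STAR 2.5.2b and deposited uniquely aligned read counts per gene for each strand setting, not normalized. Their deposited table of normalized signal values per library served here only to show that the reverse-strand counts are the ones they used. Its columns of fold changes and p-values were not used. Gene names, positions and lengths came from GENCODE vM21. Reads that map to several places, such as those shared with near-identical copies of a gene, are not in the counts.

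Genes that reached a CPM above 1 in 3 or more of the 6 libraries of a kind were fitted with TMM and the quasi-likelihood test of edgeR 4.0.16 (R 4.3.3), TE as the interaction of genotype and kind over 12 libraries, with Benjamini-Hochberg adjustment at 0.05. The fits were tested on simulated data. Deviations from group means correlated in every same-numbered pair of total RNA and RPF libraries (r from 0.11 to 0.38). These were taken as pairs in the alternative TE fit with a block for the replicate. The main TE fit, which gave the reported calls, did not pair them. Alternatives were library sizes without TMM, DESeq2 1.42.0, edgeR's exact test, other filters, both strands, protein-coding genes alone, blocks, each library left out and, added after the data were seen, Rnmt cKO replicate 3 alone.

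The genes and lists were chosen with earlier results of these data known. Values in every library are given for the 5 genes with the largest changes past the threshold in total RNA, RPF and TE, the 3 highest and 3 lowest levels, and Cpt1a, Cs, Idh2, Pdha1, Ogdh and Pcx. Of the other 57 genes, those past the threshold with a log2 change of at least 0.5 and the succinate dehydrogenase and Pdk genes are named, and 1 gene of this list is not reported here.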

Additional observations from a re-analysis of the deposited data

Results flagged for a closer look

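In 7 of the 46 genes (15.2%) the effect of the genotype differed between RPF and total RNA by the interaction test, with an increased TE in Rnmt cKO cells. Among the 10668 genes tested, 3.24% had an increased and 6.57% a decreased TE. Each time the log2 fold change was lower in total RNA than in RPF. The log2 effect in RPF minus that in total RNA was 0.51 for Eci1, 0.40 for Pdha1, 0.39 for Acat1, 0.38 for Idh2, 0.37 for Dlat, 0.32 for Acsl5 and 0.29 for Hsd17b4. In all 3 replicates of Rnmt cKO cells the TE of these genes was above the 3 controls, which adds no support because that test selected them. The cause was not tested.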

How the results depend on the processing

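Every alternative kept the direction of the median in total RNA, RPF and TE and of every gene that passed the threshold. The counts of decreased genes in total RNA (20 to 28 over all alternatives) stayed within 1.5 times the reported 28, and those in RPF did except with Rnmt cKO replicate 3 alone (10 decreased and 0 increased, median -0.29). That fit, chosen after seeing the data, also gave 1 increased in total RNA (median -0.27) and 0 increased in TE. Leaving out each library gave 1 to 5 genes increased in total RNA with medians of -0.39 to -0.29, medians of -0.31 to -0.23 in RPF, and 1 to 7 increased and 0 to 3 decreased in TE. The shares of all genes called in these fits are not given here. The lowest medians came without control replicate 3. The 3 decreases in TE without Rnmt cKO replicate 3 were Acadl, Mdh2 and Etfa, and the 1 without Rnmt cKO replicate 2 was Aco1.

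For TE, library sizes without TMM gave 3 increased and 1 decreased, DESeq2 1 decreased, protein-coding genes alone 1 decreased, no filter on low counts 2 increased, and the block for the replicate shared by both kinds of library 1 decreased. The single decrease was Acadl each time. Replicate numbers were not shown to pair the genotypes (r of same-numbered libraries from -0.48 to 0.28), and a replicate block gave 1 increased in total RNA and 1 in TE. RPF depth was lowest at 4123271 reads, in Rnmt cKO replicate 3, and its part in the values was not tested. The causes were not tested.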

Other observations

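Total RNA of 7 of the 46 genes, Acadl, Acsl4, Dld, Etfa, Idh3a, Mdh2 and Ogdh, was highest in replicate 3 among controls and lowest in replicate 3 among Rnmt cKO cells (15.2%), against 19.6% of the 11519 genes tested, so the order was not more frequent among them. For Mdh2, total RNA was 93.6, 96.3 and 113 CPM in controls and 162, 166 and 108 CPM in Rnmt cKO cells, for Idh3a 84.5, 86.8 and 98.6 and 119.7, 119 and 89.1 CPM, for Dld 73.5, 73.4 and 83.1 and 94.2, 94.1 and 72.4 CPM, for Acadl 19.4, 23.7 and 25.6 and 23.8, 23.5 and 19.6 CPM, and for Acsl4 135, 129 and 149 and 127, 135 and 116 CPM. This order was chosen after the values were seen. The summed total RNA of the 6 B cell genes had the same highest control and lowest Rnmt cKO library, with 9.60, 6.30 and 34.4 CPM in controls and 88.6, 106 and 20.0 CPM in Rnmt cKO cells, led by Ms4a1, and 0 of the 6 genes were at 0 in every library of a genotype. Its part in these values was not tested.

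Genes of fatty acid oxidation that other tissues use were near 0 in these cells. Cpt1b, the muscle form of Cpt1a, was at most 0.204 CPM of total RNA, Cd36, a fatty acid transporter, at most 0.611, and Ppargc1a at most 0.0539. Cpt1c, the form of neurons, had RPFs of 0.939, 3.32 and 4.54 CPM in controls and 1.87, 3.03 and 27.6 CPM in Rnmt cKO cells, against at most 0.258 CPM of total RNA, and Ppara had 0, 0.258 and 4.28 CPM of total RNA in Rnmt cKO cells against 0.478, 0.582 and 0.377 CPM in controls. In both the highest value was that of Rnmt cKO replicate 3.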
